A study of Mus musculus with 17 samples.

Results

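In αPonly cells, a copy of the α-globin promoter without its gene had been placed between the α-globin enhancers and the genes, and WT αYFP cells carried no insert. The comparison comprised 7 Capture-C libraries of the 17 in the series, chosen by their labels: 4 αPonly and 3 WT αYFP libraries, each from an independent differentiation. Both groups shared the parental mouse embryonic stem cell line, in which a single α-globin locus remained and Hba-a1 carried an mVenus (YFP) reporter, and both were differentiated into embryoid bodies from which CD71+ cells, erythroid cells bearing the transferrin receptor, were selected on magnetic columns. The insert was made by CRISPR-Cas9 and homology-directed repair at a landing site between the enhancer R4 and Hba-x. The repair template also carried a selection cassette between loxP sites, which let Cre remove it. WT αYFP cells were the parental line, so effects of these editing steps and of the promoter cannot be told apart. Whether the libraries of a group came from 1 clone or several is not stated for this assay, so effects of a clone and of the insert cannot be told apart. Interaction counts measure neither the CD71 marker nor transcription, and the cell identity therefore rests on the labels. The paper likens CD71+ cells of this protocol to primitive (embryonic) erythroblasts.

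Capture-C reports how often a chosen fragment, the viewpoint, is ligated to every other DpnII fragment in fixed nuclei. The viewpoints R1 and R2 are distal erythroid enhancers of the α-globin genes, and the viewpoint named HS38 in the deposited tables lies at the upstream edge of the locus, where a pair of neighbouring CTCF sites is called HS-38 and HS-39. Its position falls on the site that the study's source data list as HS39, so the names may be exchanged, and the deposited name is kept here. All of them sit within Nprl3, a broadly expressed gene whose introns hold most of the enhancers. In erythroid cells the enhancers contact the embryonic gene Hba-x and the adult genes Hba-a1 and Hba-a2 inside a self-interacting domain, the sub-TAD. Hbb-b1 and Hbb-b2 (adult β-globin genes) and Slc25A37 (the mitochondrial iron importer mitoferrin) are unedited viewpoints on other chromosomes. The question was whether a promoter alone, in the path between the enhancers and their genes, draws contacts from the enhancers or reduces those with the genes beyond it.

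The insert comprised 373 bp of the Hba-a1 promoter, 332 bp before the start of the gene that RefSeq gives and 41 bp from it on. The 250 bases before the start are shown because they hold most of what was inserted, followed by the 250 bases upstream of Hba-x, the first native gene past the insert, and by the landing site. Capitals in the first pair mark matches on either strand to the CCAAT box (spelled CCAAT), the core of GATA sites (GATAA), the CACCC box that KLF factors bind (CACCC) and the TATA box (TATAA), and capitals in the last mark the 70 bases between the homology arms. Starts are those of RefSeq, placed in mm9 by an exact match.
Hba-a1 upstream, chr11:32183422-32183671, plus strand: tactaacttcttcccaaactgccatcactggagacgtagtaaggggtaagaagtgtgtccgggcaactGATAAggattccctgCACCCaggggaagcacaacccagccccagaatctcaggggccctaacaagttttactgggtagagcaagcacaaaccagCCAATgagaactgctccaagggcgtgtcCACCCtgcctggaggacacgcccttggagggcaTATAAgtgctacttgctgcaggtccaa
Hba-x upstream, chr11:32176350-32176599, plus strand: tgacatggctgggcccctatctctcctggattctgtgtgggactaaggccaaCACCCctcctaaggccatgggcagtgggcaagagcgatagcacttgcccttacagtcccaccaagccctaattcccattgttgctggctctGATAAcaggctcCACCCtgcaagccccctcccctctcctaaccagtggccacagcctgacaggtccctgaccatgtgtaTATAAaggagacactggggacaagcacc
Landing site with 15 bases on each side, chr11:32171772-32171871, plus strand: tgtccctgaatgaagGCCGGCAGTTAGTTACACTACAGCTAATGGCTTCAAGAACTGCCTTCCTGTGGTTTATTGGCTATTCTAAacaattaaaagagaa
The Hba-a1 sequence held CCAAT from −88 to −84, GATAA from −182 to −178, CACCC from −167 to −163 and from −60 to −56, and TATAA from −27 to −23, counted from the start of the gene. The Hba-x sequence held GATAA from −107 to −103, CACCC from −198 to −194 and from −95 to −91, and TATAA from −28 to −24, and the letters of the CCAAT box were not in this window. Of 32841 mouse promoter windows of the same length in the RefSeq table (GRCm38.p6), 33.9% held CCAAT, 22.6% GATAA, 52.0% CACCC and 22.8% TATAA on either strand. The promoter sequences of Hba-a1 and Hba-a2 were nearly the same: the stretch shown matched chromosome 11 at 2 places, and the DpnII fragments with the starts of these genes shared 499 identical bases in a row.

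This sequence decides what the assay can see. The inserted promoter held 0 DpnII sites, so it lay inside the landing fragment (chr11:32170702-32172142, 1441 bp, intergenic) and added no fragment of its own. Bases left by the selection cassette were not in the sequence searched. The landing site lies 1085 bp from the upstream end of that fragment and 286 bp from its downstream end, and ligations at either end are read from unedited flanking sequence. A read made of inserted bases would align to a native promoter instead, so counts at the start of Hba-a1 or Hba-a2 in αPonly may include some from the insert. For the same reason the label of an αPonly library could not be checked against its insert.

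The cis total, that is the interactions on the viewpoint's own chromosome outside a zone around the viewpoint, ranged from 9834 to 19067 in αPonly and from 13565 to 21735 in WT αYFP for R2, from 6123 to 13951 and from 7554 to 14791 for R1, and from 6179 to 14925 and from 7337 to 15672 for HS38. αPonly replicate 2 was the shallowest library for each viewpoint. All values below are interactions per 100,000 of this cis total. Replicates differed by more than counting noise, with a chi-square per degree of freedom between 1.64 and 2.43 for these viewpoints, so all tests compare libraries.

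Across the locus, no broad region, window, element or gene differed between αPonly and WT αYFP after adjustment. edgeR's quasi-likelihood test called 0 of 30 combinations of 10 regions and 3 viewpoints (0%), with 5 at an unadjusted p under 0.05 (1 higher and 4 lower in αPonly), 0 of 65 windows of 3000 bp (3 unadjusted, all lower), and 0 of 48 combinations of an element or gene and a viewpoint (5 unadjusted, 4 higher and 1 lower). The DESeq2 Wald test called 0, 0 and 1 of them. The libraries of the groups did not overlap in 3 of 30 regions (10%), 5 of 65 windows (7.69%) and 3 of 48 elements and genes (6.25%). Of 873 single fragments, 1 was called (0.115%), 46 had an unadjusted p under 0.05 (26 higher, 20 lower), and in 58 (6.64%) the groups did not overlap. The precision of these statements depended on the unit, since the median reach of the 95% interval to either side was 0.20 on the log2 scale for regions, 0.24 for windows and 0.76 for fragments.

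**Figure D1:**
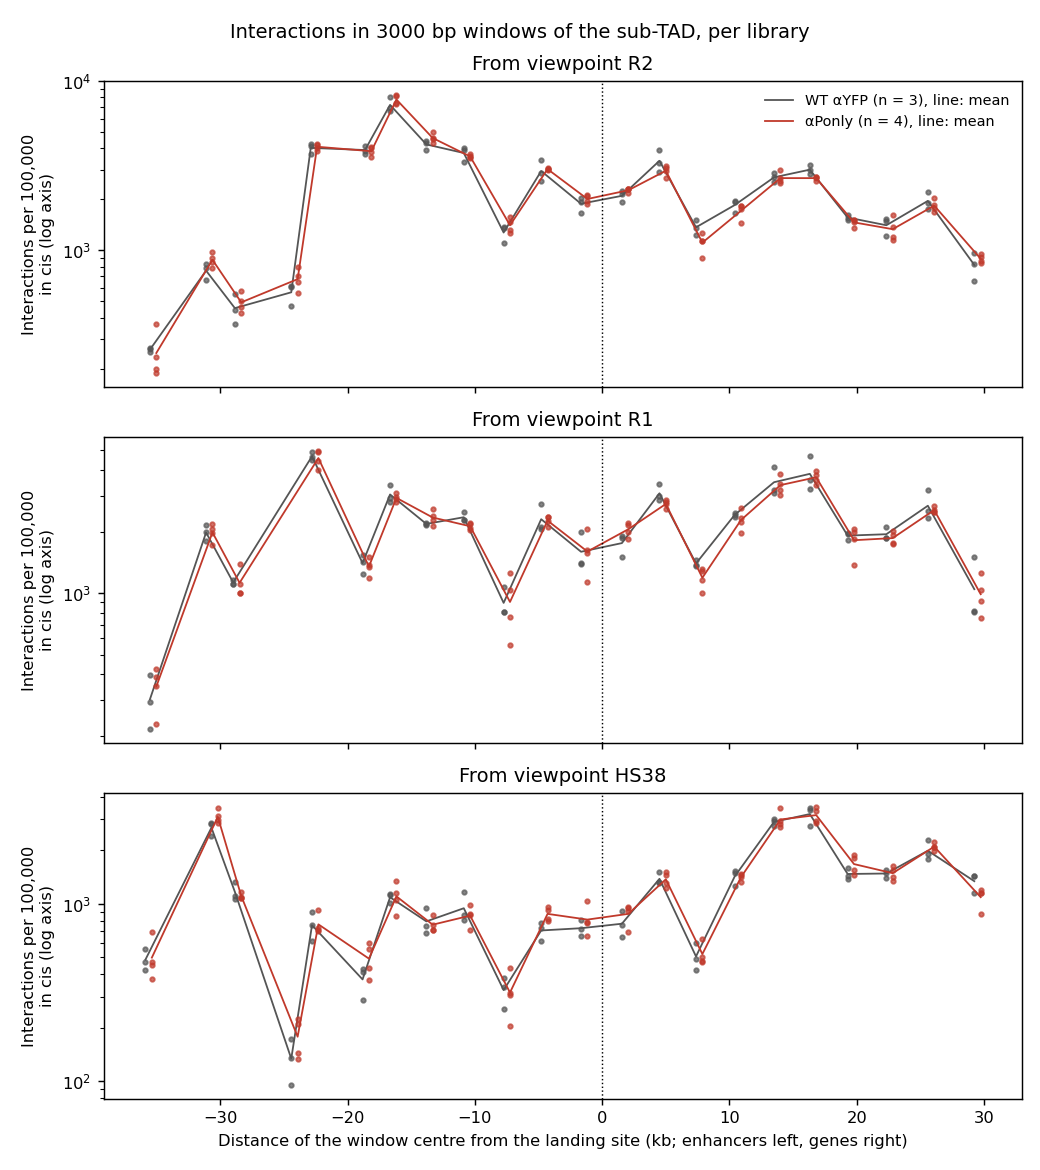
Interactions per 100,000 in cis (log axis) in 3000 bp windows of the sub-TAD against distance from the landing site (kb), from R2, R1 and HS38. Points are libraries, lines are group means (grey WT αYFP, n = 3; red αPonly, n = 4) and the dotted line is the landing site; the lines run close together, and 0 of 65 windows differed after adjustment.

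The insertion region, 8 fragments over 3.5 kb around the landing site, was the place where contact with the new promoter would be counted. From R2, αPonly libraries 1 to 4 held 1906, 1922, 1689 and 1879 interactions per 100,000 there, and WT αYFP libraries 1 to 3 held 1961, 1458 and 1878. The groups overlapped, and the highest value was that of a WT αYFP library. The ratio of αPonly to WT αYFP was 1.05 with a 95% interval from 0.901 to 1.22 (edgeR adjusted p 0.731; exact two-sided permutation p 0.629, of which the smallest possible with 4 against 3 libraries is 0.0286). From R1, the αPonly libraries held 1761, 1486, 1369 and 1516 and the WT αYFP libraries 1099, 1352 and 1611. Here the lowest library and the next lowest were both WT αYFP, but the third WT αYFP library lay above 3 of the αPonly libraries. The ratio was 1.1 with an interval from 0.912 to 1.33 (edgeR adjusted p 0.589; exact permutation p 0.314). On the log2 scale this was 0.14, which became 0.04 without WT αYFP replicate 1, 0.07 without αPonly replicate 1 and 0.28 without WT αYFP replicate 3. From HS38, the αPonly libraries held 723, 631, 637 and 914 and the WT αYFP libraries 722, 810 and 667, a ratio of 0.992 with an interval from 0.782 to 1.26 (edgeR adjusted p 0.944; exact permutation p 0.971). For scale, the αP+G libraries, which carry promoter and gene at the same site, averaged 2346 ± 126 from R2, 2008 ± 272 from R1 and 775 ± 118 from HS38 (SD, n = 4), and their comparison with WT αYFP uses the same 3 control libraries.

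The landing fragment itself, which holds the inserted promoter in αPonly, was not distinguishable between the groups from any viewpoint. From R2 it collected 27, 26, 62 and 61 interactions in the αPonly libraries and 35, 50 and 55 in the WT αYFP libraries. Scaled, this was 290 ± 84.6 (SD, n = 4) and 248 ± 15.2 (SD, n = 3), and the αPonly values, from 186 to 383, spanned those of WT αYFP. The log2 fold change was 0.25 with an interval from −0.21 to 0.71 (edgeR adjusted p 0.893). From R1 the counts were 24, 10, 23 and 15 against 9, 34 and 33, a log2 fold change of −0.11 (−0.70 to 0.49, edgeR adjusted p 0.988). From HS38 they were 7, 6, 24 and 18 against 10, 10 and 16, a log2 fold change of 0.43 (−0.40 to 1.26, edgeR adjusted p 0.957). These counts do not tell apart the differences that lie within these intervals.

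The fragments on either side of it were also without a call. The fragment just downstream (chr11:32172143-32172436) held 172, 275, 136 and 176 interactions per 100,000 from R2 in αPonly and 147, 133 and 134 in WT αYFP. Only αPonly replicate 3 lay within the WT αYFP range (log2 fold change 0.41, −0.13 to 0.94, edgeR adjusted p 0.759). The next fragment downstream (chr11:32172437-32172630) had a log2 fold change of 0.08 from R2 and 0.49 from R1, and was below the minimum count for testing from HS38. The fragment before the landing fragment was the same in mean from R2 (374 ± 65.8 in αPonly and 376 ± 124 in WT αYFP) and from R1 (269 ± 95.2 and 270 ± 139), whereas from HS38 it held 170.3 ± 66.4 and 259.5 ± 95.5 (log2 fold change −0.64, −1.39 to 0.12, edgeR adjusted p 0.928). The fragment preceding that one (starting at chr11:32169528) held 337, 259, 161 and 179 against 164, 121 and 155 from HS38, with the highest values in αPonly libraries 1 and 2 (log2 fold change 0.64, unadjusted p 0.0459, edgeR adjusted p 0.928). Over the fragments that overlap the 3′ homology arm, the log2 fold changes were 0.09 from R2, 0.19 from R1 and 0.27 from HS38, and over those that overlap the 5′ homology arm they were 0.10, −0.05 and −0.28. Both sets hold the landing fragment, and each interval included 0.

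**Figure D2:**
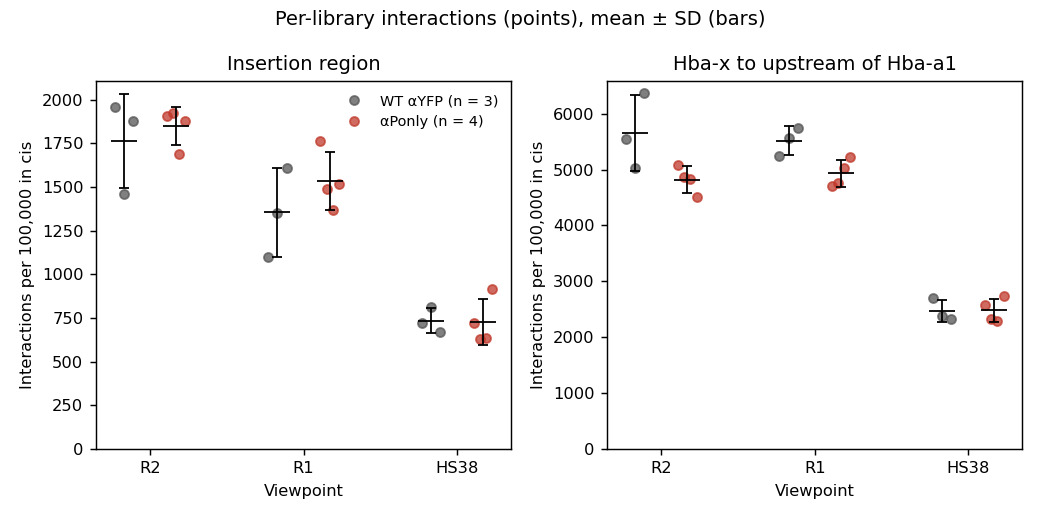
Interactions per 100,000 in cis in the insertion region (left) and from Hba-x to upstream of Hba-a1 (right), by viewpoint. Points are libraries and bars are the mean ± SD of WT αYFP (grey, n = 3) and αPonly (red, n = 4); in the right panel the 4 αPonly libraries lie between 4703 and 5234 from R1, below the WT αYFP libraries.

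The stretch from Hba-x to upstream of Hba-a1, 21 fragments over 7.9 kb just past the insert, had a lower mean in αPonly from both enhancers and not from HS38, and none of these differences was called. From R2 the αPonly libraries held 5086, 4861, 4841 and 4507 and the WT αYFP libraries 5544, 5038 and 6382. The groups overlapped by a single pair, αPonly replicate 1 and WT αYFP replicate 2, and the ratio was 0.852 with an interval from 0.759 to 0.956, which did not pass the threshold over the 30 combinations (edgeR adjusted p 0.0821; exact permutation p 0.0571). The adjusted p was 0.376 without WT αYFP replicate 3, the highest library, 0.0103 without WT αYFP replicate 2, 0.0457 without αPonly replicate 1 and 0.0322 when scaled to the interactions of the plotted window. From R1 the αPonly libraries held 4703, 4769, 5032 and 5234 and the WT αYFP libraries 5242, 5571 and 5744, and the groups did not overlap. The ratio was 0.894 (0.801 to 0.997, edgeR adjusted p 0.269; exact permutation p 0.0571). From HS38 the αPonly libraries held 2579, 2330, 2292 and 2732 and the WT αYFP libraries 2699, 2386 and 2330, a ratio of 1.02 (0.885 to 1.17, edgeR adjusted p 0.883). The αP+G libraries averaged 4536 ± 264 from R2, 5141 ± 346 from R1 and 2804 ± 340 from HS38 (SD, n = 4). Both inserts were set against the same 3 WT αYFP libraries.

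Whether the enhancers differed in this from HS38 was tested within libraries. The log2 ratio of the R2 value to the HS38 value in the Hba-x stretch was 0.961 ± 0.164 in αPonly and 1.19 ± 0.229 in WT αYFP (SD over 4 and 3 libraries), a difference of −0.23 (exact permutation p 0.257, adjusted 0.457 over 4 comparisons). For R1 over HS38 it was 0.993 ± 0.116 and 1.16 ± 0.180, a difference of −0.17 (exact permutation p 0.171, adjusted 0.457). In the insertion region the differences were 0.10 for R2 over HS38 and 0.22 for R1 over HS38 (exact permutation p 0.629 and 0.343, adjusted 0.629 and 0.457). A difference between the enhancers and HS38 was therefore not shown.

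The balance between the insertion region and the Hba-x stretch, taken within each library, removes the scaling. From R2 the log2 balance was −1.42, −1.34, −1.52 and −1.26 in αPonly and −1.50, −1.79 and −1.76 in WT αYFP. All αPonly libraries but replicate 3 lay above every WT αYFP library, and the mean ratio was 1.23-fold that of WT αYFP (exact permutation p 0.0857, adjusted 0.129 over 3 viewpoints). From R1 it was −1.42, −1.68, −1.88 and −1.79 against −2.25, −2.04 and −1.83, or 1.28-fold (exact permutation p 0.0857, adjusted 0.129). From HS38 it was −1.835, −1.885, −1.848 and −1.58 against −1.901, −1.558 and −1.805, or 0.978-fold (exact permutation p 0.657, adjusted 0.657). The step across the insert, the log2 ratio of the gene side to the enhancer side of the sub-TAD, was −0.531 ± 0.0726 in αPonly and −0.375 ± 0.0904 in WT αYFP (SD over 4 and 3 libraries) from R2, a difference of −0.16 (exact permutation p 0.0857, adjusted 0.257). From R1 the difference was −0.05 and from HS38 −0.08 (exact permutation p 0.743 and 0.400, adjusted 0.743 and 0.600).

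**Figure D3:**
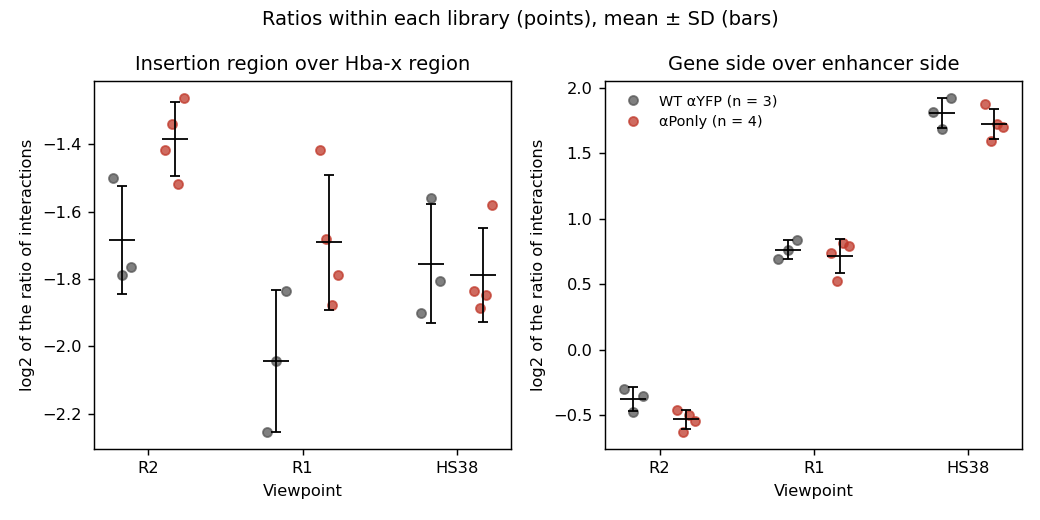
Log2 ratios computed within each library, by viewpoint: insertion region over the Hba-x stretch (left) and gene side over enhancer side (right). Points are libraries and bars are the mean ± SD of WT αYFP (grey, n = 3) and αPonly (red, n = 4); on the left, 3 of 4 αPonly libraries lie above all WT αYFP libraries from R2, and from HS38 the groups overlap.

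Among the 3000 bp windows, the smallest p was at the 3′ end of Hba-x and just past it. This window (chr11:32178043-32180844) runs from the 3′ end of Hba-x towards Hba-a1. It lies within the Hba-x stretch and shares counts with the Hba-x gene below, so these are not separate observations. From R2 it held 1273, 1139, 1128 and 899 in αPonly and 1231, 1362 and 1508 in WT αYFP. One αPonly library lay within the WT αYFP range, and the log2 fold change was −0.31 (−0.56 to −0.07, unadjusted p 0.0145, edgeR adjusted p 0.606). From R1 the same window held 1004, 1160, 1276 and 1316 against 1377, 1460 and 1353, without overlap (log2 fold change −0.22, −0.47 to 0.02, edgeR adjusted p 0.606). From HS38 its log2 fold change was 0.04. The other windows without overlap were 2 more from R1, at distances of −10.62 kb (log2 fold change −0.15) and 4.75 kb (−0.18) from the landing site, one from R2 at 16.56 kb (−0.17) and one from HS38 at −4.54 kb, the only one higher in αPonly (0.28). From R2, 8 of the 9 windows on the gene side were lower in αPonly in mean and 8 of the 11 on the enhancer side were higher, with medians of −0.10 and 0.10 on the log2 scale. From R1, 9 of 9 gene-side windows were lower (median −0.07), and 7 of 10 on the enhancer side were too. From HS38, 6 of 9 gene-side windows were higher (median 0.003), and so were 7 of 11 on the enhancer side (median 0.08). Windows of one viewpoint share their scaling and their libraries, so these counts are a description and not a test.

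Among the genes, Hba-x, the embryonic ζ-globin gene, had the lowest value of the elements and genes tested. Over its 7 fragments R2 made 1879, 2125, 1773 and 1754 interactions per 100,000 in αPonly and 2344, 2001 and 2719 in WT αYFP. Only αPonly replicate 2 exceeded a WT αYFP library, and the log2 fold change was −0.33 (−0.56 to −0.10, unadjusted p 0.00627, edgeR adjusted p 0.151). From R1 it was −0.19 (−0.42 to 0.05, edgeR adjusted p 0.645) and from HS38 0.03. The αP+G libraries averaged 1792.5 over Hba-x from R2 (n = 4), against means of 1882.6 in αPonly and 2355 in WT αYFP. The fragment with the annotated start of Hba-x (chr11:32176203-32176928, exon) held 502, 529, 441 and 333 from R2 in αPonly and 435, 442 and 518 in WT αYFP, a log2 fold change of −0.06 (−0.45 to 0.33), whereas from R1 it held 319, 245, 423 and 419 against 463, 446 and 442, without overlap (−0.31, −0.77 to 0.16, edgeR adjusted p 0.912). The lowest fragment of the gene from R2 lay over an exon further in (chr11:32177758-32178042) and held 262, 325, 346 and 251 against 501, 327 and 610 (log2 fold change −0.69, −1.12 to −0.26, edgeR adjusted p 0.183, and 0.0372 without WT αYFP replicate 2). From R1 and HS38 its log2 fold changes were −0.39 and −0.57. A 47 bp fragment just before the gene (chr11:32176156-32176202) held 71, 131, 72 and 105 from R1 against 199, 176 and 258, without overlap (log2 fold change −1.21, −1.94 to −0.48, edgeR adjusted p 0.322), while its log2 fold change was −0.73 from HS38, also without overlap, and −0.06 from R2.

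At the adult α-globin genes no difference passed the threshold. Hba-a1, which carries the reporter and supplied the inserted sequence, held 1483 ± 120 interactions per 100,000 from R2 in αPonly and 1487 ± 17.3 in WT αYFP (SD over 4 and 3 libraries), a log2 fold change of 0.002 (−0.26 to 0.26, edgeR adjusted p 0.985). From R1 it held 1897 ± 200 and 2173 ± 270, with each αPonly library below the WT αYFP mean (log2 fold change −0.19, −0.47 to 0.09, edgeR adjusted p 0.645). From HS38 it held 1439 ± 245 and 1382 ± 78.7 (0.04, −0.22 to 0.29). The fragment with its start, where reads from the insert could also be counted, held 736, 447, 540 and 453 in αPonly and 546, 529 and 509 in WT αYFP from R2, with αPonly replicate 1 highest (log2 fold change 0.05, −0.31 to 0.42, edgeR adjusted p 0.976). Hba-a2, the other adult gene, held 1394 ± 145 and 1346 ± 127 from R2 (log2 fold change 0.05, −0.22 to 0.32), and its log2 fold changes were −0.08 from R1 (−0.37 to 0.22) and 0.02 from HS38 (−0.25 to 0.28). Its start fragment (chr11:32195806-32196636) held 826, 488, 545 and 471 from R2 against 523, 432 and 523, again with αPonly replicate 1 highest (log2 fold change 0.25, −0.12 to 0.63, edgeR adjusted p 0.814). The log2 fold changes of this fragment were −0.04 from R1 and 0.02 from HS38. Counts at the starts of Hba-a1 and Hba-a2 are uncertain between these genes because of the bases they share. For the θ-globin genes, Hbq1b between the adult α-globin genes and Hbq1a at the downstream edge of the sub-TAD, the log2 fold changes were −0.04 and 0.12 from R2, −0.08 and −0.09 from R1, and −0.05 and −0.26 from HS38. At their start fragments they were between −0.37 and 0.19 (edgeR adjusted p 0.907 or more).

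Of the enhancers, only R3 was tested as an element, and the others had no value of their own. Neither R3 nor the enhancer cluster was called. The enhancer R3 held 5024, 5237, 4432 and 5136 interactions per 100,000 from R2 in αPonly and 4254, 4178 and 4717 in WT αYFP. One αPonly library lay within the WT αYFP range, and the log2 fold change was 0.17 (0.002 to 0.35, unadjusted p 0.0473, edgeR adjusted p 0.454). From R1 and HS38, R3 had log2 fold changes of 0.06 and 0.04. The enhancer cluster as a whole had ratios of 1.04 from R2 (0.96 to 1.13), 0.978 from R1 (0.898 to 1.07) and 1.06 from HS38 (0.976 to 1.15). One Nprl3 intron fragment between R1 and R2 (chr11:32148903-32149605) held 241, 210, 281 and 278 from HS38 in αPonly and 123, 160 and 114 in WT αYFP, without overlap, and had a log2 fold change of 0.94 (0.37 to 1.51, unadjusted p 0.00228, edgeR adjusted p 0.702). From R1 and R2, where it was counted more often, its log2 fold changes were 0.002 and 0.25.

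**Figure D4:**
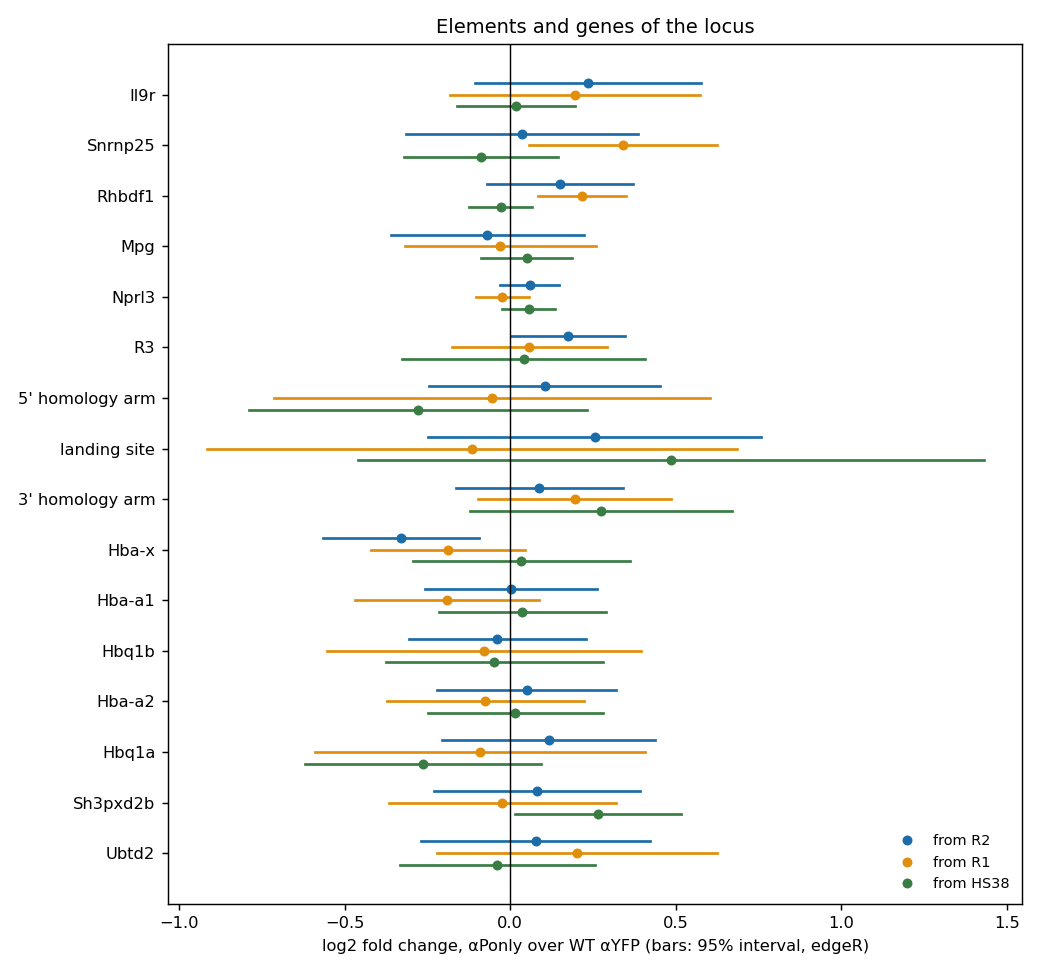
Log2 fold change of αPonly over WT αYFP for elements and genes, upstream to downstream, from R2 (blue), R1 (orange) and HS38 (green). Bars are 95% intervals of the edgeR fit and the line at 0 is no difference; most intervals include 0, Hba-x from R2 lies lowest at −0.33, and 0 of 48 passed the threshold.

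The region upstream of the sub-TAD held 11404, 11253, 11662 and 10610 interactions per 100,000 from R1 in αPonly and 10511, 10378 and 10114 in WT αYFP, without overlap (ratio 1.09, 0.991 to 1.19, edgeR adjusted p 0.354). Its genes Il9r, Snrnp25, Rhbdf1 and Mpg lie on the far side of the enhancers from the insert. Rhbdf1, which encodes an inactive rhomboid protease, held 3805, 4001, 4186 and 3918 interactions per 100,000 from R1 in αPonly and 3508, 3340 and 3439 in WT αYFP. Every αPonly library lay above every WT αYFP library (log2 fold change 0.22, 0.08 to 0.35, unadjusted p 0.00353, edgeR adjusted p 0.151; exact permutation p 0.0286 before adjustment, the smallest possible). This was the single combination that the DESeq2 Wald test called (adjusted p 0.0366). From R2 the log2 fold change of Rhbdf1 was 0.15 (−0.07 to 0.37), and from HS38, which contacts it most, −0.03 (−0.12 to 0.07). Within Rhbdf1, the fragment chr11:32122091-32122691, over an exon at its 5′ end, held 236, 180, 136 and 248 from R1 against 66, 88 and 109 (log2 fold change 1.11, 0.39 to 1.84, edgeR adjusted p 0.356). An intronic fragment (chr11:32118904-32119560) held 83, 180, 172 and 219 against 40, 81 and 82 (log2 fold change 1.19, edgeR adjusted p 0.436). Another (chr11:32121627-32121993) had 0.73 from R1 but −1.10 from HS38, with 60, 81, 87 and 170 against 164, 274 and 209. Means of the αP+G libraries (n = 4) were near those of αPonly at these fragments. They were 195.6 (starting at 32122091) and 152.3 (32118904) from R1, and 109.7 (32121627) from HS38. Over Rhbdf1 as a whole from R1, the αP+G mean was 3601, against 3978 in αPonly and 3429 in WT αYFP. Snrnp25, a component of the minor spliceosome, held 1205, 1306, 1039 and 1125 from R1 against 913, 872 and 958, also without overlap (log2 fold change 0.34, 0.06 to 0.62, edgeR adjusted p 0.355), and 0.04 and −0.09 were its log2 fold changes from R2 and HS38. Il9r had 0.24 from R2, 0.20 from R1 and 0.02 from HS38, and Mpg, a DNA glycosylase gene, between −0.07 and 0.05. A fragment shared by a Mpg exon and a Nprl3 intron (chr11:32130360-32130768) was among the lowest from R2, with 83, 122, 73 and 69 against 236, 147 and 111 (log2 fold change −0.92, −1.55 to −0.29, edgeR adjusted p 0.277), while from R1 its log2 fold change was 0.29.

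Past the genes, the 3 smallest p of the regions besides the Hba-x stretch were found. The HS+44/+48 window, which holds CTCF sites past the genes, held 2579, 2201, 2298 and 2239 from HS38 in αPonly and 2590, 2712 and 2795 in WT αYFP. The groups did not overlap, although αPonly replicate 1 lay just under the lowest WT αYFP library, and the ratio was 0.857 (0.77 to 0.955, edgeR adjusted p 0.0821; exact permutation p 0.0571). Without αPonly replicate 1 the adjusted p was 0.0306, and when scaled to the plotted window 0.0322. From R1 and R2 the ratios were 0.893 and 0.917, with intervals that included 1. The whole downstream flank from HS38, which contains this window, had a ratio of 0.903 (0.836 to 0.974, edgeR adjusted p 0.0821). The HS+65/66 window held 193, 305, 362 and 289 from R2 in αPonly and 162, 216 and 166 in WT αYFP, where αPonly replicate 1 lay within the WT αYFP range. The ratio was 1.58 (1.13 to 2.20, edgeR adjusted p 0.0821), against 0.814 from R1 and 0.974 from HS38. These values rest on 22 to 69 interactions per library, and without αPonly replicate 1 the adjusted p was 0.0306. The αP+G libraries averaged 259 ± 69.0 in the HS+65/66 window from R2 and 2541 ± 103 in the HS+44/+48 window from HS38 (SD, n = 4). The first mean was near that of αPonly (287), and the second lay between αPonly (2329) and WT αYFP (2699). A fragment 3′ of Hba-a2 (chr11:32197599-32198003, intergenic) came nearest to a call inside the TAD. It held 103, 71, 42 and 107 from R2 in αPonly and 155, 198 and 176 in WT αYFP, without overlap, a log2 fold change of −1.15 (−1.77 to −0.53, edgeR adjusted p 0.0588). It was called with TMM or DESeq2 size factors (adjusted p 0.0443 and 0.041), when scaled to the plotted window (0.0477) and without αPonly replicate 1 (0.0275). From R1 its log2 fold change was −0.66 and from HS38 −0.08. The αP+G libraries averaged 93.2 there from R2 (n = 4), against means of 80.8 in αPonly and 176.1 in WT αYFP. From HS38, an intergenic fragment between the adult genes (chr11:32191286-32192036) held 398, 243, 308 and 224 against 123, 211 and 155 (log2 fold change 0.79, edgeR adjusted p 0.702). Sh3pxd2b, an adaptor gene beyond the TAD, held 1518, 1716, 1347 and 1415 from HS38 against 1213, 1346 and 1125, barely without overlap, the nearest libraries being 1346.7 and 1346.4 (log2 fold change 0.26, 0.01 to 0.52, edgeR adjusted p 0.454), and its values from R1 and R2 were −0.02 and 0.08. Ubtd2 had 0.08, 0.20 and −0.04 from R2, R1 and HS38.

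**Figure D5:**
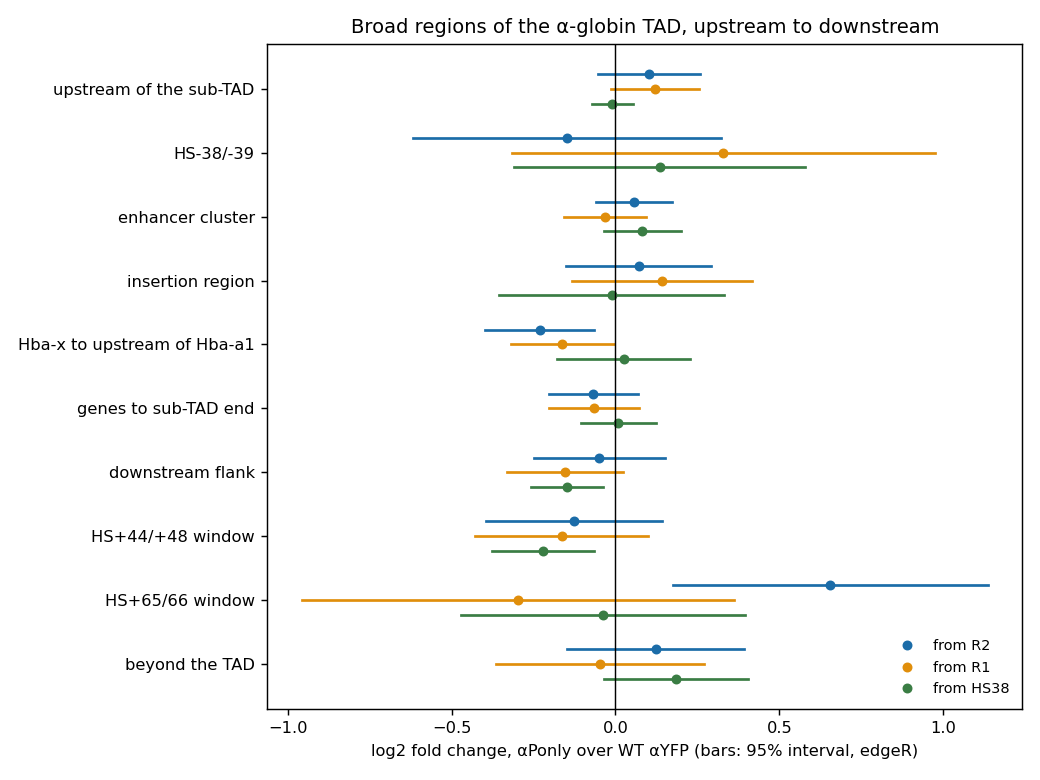
Log2 fold change of αPonly over WT αYFP for the 10 regions, upstream to downstream, from R2 (blue), R1 (orange) and HS38 (green). Bars are 95% intervals of the edgeR fit; the Hba-x stretch from R2 lies at −0.23 and the HS+65/66 window from R2 at 0.66, and 0 of 30 passed the threshold after adjustment.

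The single called fragment lay far outside the locus, in an intron of the predicted gene Gm12107 (chr11:31736368-31736993), with its centre at −435.1 kb from the landing site. From R2 it collected 7, 3, 16 and 7 interactions in the αPonly libraries and 1, 1 and 2 in the WT αYFP libraries. The log2 fold change was 2.81 (1.40 to 4.23, edgeR adjusted p 0.0470). Its mean count over the 11 CD71+ libraries was 5.36, just above the minimum of 5 for testing. WT αYFP held 4 of these interactions and αPonly 33, so the minimum was reached only through libraries with an insert. Scaled, the means were 51.65 ± 22.79 in αPonly, 32.35 ± 15.22 in αP+G and 7.07 ± 2.34 in WT αYFP (SD, n = 4, 4 and 3). The αPonly counts from R2 were higher in 4 of 4 libraries, but the fragment held 0, 0, 1 and 3 from HS38 against 0, 2 and 1, and 2, 1, 3 and 0 from R1 against 5, 1 and 0. It was not called by the DESeq2 Wald test (adjusted p 0.200), with a minimum mean count of 1 (0.170), with the replicate block (0.0568), or without αPonly replicate 3 (0.261) or 4 (0.0554) or WT αYFP replicate 1 (0.101), 2 (0.155) or 3 (0.136).

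The share of interactions at each distance was also compared. R2 made 51.6% ± 1.11 of its cis interactions inside the sub-TAD in αPonly and 51.4% ± 2.93 in WT αYFP (SD over 4 and 3 libraries), R1 44.1% ± 0.980 and 45.4% ± 3.35, and HS38 27.5% ± 0.874 and 26.7% ± 0.744. The shares in the rest of the TAD, beyond it and in cis differed by 1.55 percentage points or less in mean (exact permutation, adjusted p 1.0 for each share). The unedited viewpoints give the background away from the edit. From Hbb-b1, Hbb-b2 and Slc25A37, edgeR called 0 of 1009 fragments (0%; DESeq2 also 0), with 47 at an unadjusted p under 0.05, and the groups did not overlap in 5.65% of fragments, compared with 6.64% from the α-globin viewpoints. Hbb-b1 made 35.4% ± 2.27 of its cis interactions within 100 kb in αPonly and 35.0% ± 2.07 in WT αYFP, Hbb-b2 35.0% ± 2.38 and 35.0% ± 1.92, and Slc25A37 53.3% ± 1.67 and 53.6% ± 1.62 (SD, n = 4 and 3).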

How the data were processed

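The authors made the libraries by Capture-C with DpnII, trimmed reads with Trim Galore, merged pairs with FLASH, used Bowtie with mm9 or a modified mm9 as the reference, and removed PCR duplicates. They deposited raw counts of unique interactions per viewpoint and DpnII fragment, one table per library. A further deposited table gives viewpoint and zone positions (other columns, not measurements). The mm9 sequence has a DpnII site at the start of 99.998% of the 41173 fragments of chromosome 11. Genes are those of GENCODE vM1 and promoter sequences are from RefSeq.

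Fragments overlapping the zone, 1000 bp each side of a viewpoint, were left out. The landing site is 32171787 to 32171856. Regions of chromosome 11, by fragment midpoint, were: upstream of the sub-TAD 32080000-32135999, HS-38/-39 32136000-32140000, enhancer cluster 32144000-32169921, insertion region 32169922-32173392, Hba-x to upstream of Hba-a1 32175105-32182970, genes to sub-TAD end 32182971-32202000, downstream flank 32202001-32245000, HS+44/+48 32215000-32228000, HS+65/66 32236000-32246000 and beyond the TAD 32245001-32330000.

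Interactions are summed by fragment for windows and regions and by overlap for elements. Counts with a mean of at least 5 over the 11 CD71+ libraries were tested with edgeR 4.0.16 (quasi-likelihood, R 4.3.3) per viewpoint, with the cis total as library size and all 3 CD71+ groups in one fit. Benjamini-Hochberg adjustment was within a viewpoint for fragments and over all combinations otherwise, at 0.05. Ratios and shares were compared by exact two-sided permutation over the 35 arrangements of 4 against 3 libraries. DESeq2 1.42.0 was an alternative. The edgeR fragment test was tested on simulated data. Whether replicate numbers pair the samples is not stated. The correlations of same-numbered fragment deviations were 0.0754, −0.0499 and 0.0395, and those of other numbers ran from −0.115 to 0.0875. The share of interactions in cis was lowest in replicate 1 of αPonly and of WT αYFP from HS38 (71.0% and 71.9%) and Slc25A37 (63.3% and 64.4%). The same held from R2 (64.82% and 64.55%), Hbb-b1 (61.75% and 63.07%) and Hbb-b2 (62.41% and 63.35%). From R1, αPonly replicate 2 (66.93%) lay just under replicate 1 (66.95%). A shared preparation was not tested, and the exact permutation tests did not pair libraries. The other alternatives were TMM and DESeq2 size factors, scaling to the plotted window, minimum counts of 1 and 20, an adjusted p of 0.01, the 7 libraries alone, other zones, fragments with another viewpoint left out, other windows, the replicate block and leaving out each library.

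Named fragments were those past the threshold, the landing fragment with 2 neighbours on each side, those with the starts of the α-like globin genes, and the 3 with the smallest p inside the TAD from each viewpoint. Named regions, windows and elements were the Hba-x stretch and insertion region, every genic element, and the 3 with the smallest p of each kind. The comparison, lists and tests were chosen with earlier results of these data known. Ter119+ libraries were not used here.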

Additional observations from a re-analysis of the deposited data

Results flagged for a closer look

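In 163 sets of αPonly values, the 4 libraries were checked for one far from the others by Dixon's ratio, the gap to the nearest library over the whole range. Chance flags about 1 in 20 sets, and 5 were flagged. The balance of the insertion region to the Hba-x stretch from HS38 was −1.58 in αPonly replicate 4 and between −1.89 and −1.83 in the others (ratio 0.836). The HS+65/66 window from R1 held 359 interactions per 100,000 in replicate 2 and 272 to 286 in the others (ratio 0.838). Hbq1a from HS38 held 874 in replicate 2 and 1145 to 1193 in the others (ratio 0.85). Mpg from R1 held 1773 in replicate 1 and 1663 to 1668 in the others (ratio 0.952). The landing fragment from R1 (chr11:32170702-32172142) held 284 in replicate 1 and 143 to 165 in the others (ratio 0.844). No library was flagged in more than 2 sets.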

How the results depend on the processing

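Single fragments called numbered 2 with TMM size factors, DESeq2 size factors or scaling to the plotted window, 0 with the DESeq2 Wald test, a minimum mean count of 1 or 20, an adjusted p under 0.01 or the replicate block, and 0 to 2 when one library was left out, against 1 in the report. Regions called numbered 3 when scaled to the plotted window and 0 to 4 with one library left out (4 without αPonly replicate 1, 1 without WT αYFP replicate 2). Elements and genes called numbered 1 with the DESeq2 Wald test, and windows and control fragments stayed at 0 under each alternative. The Hba-x stretch from R2 had log2 fold changes of −0.241 scaled to the plotted window, −0.204 with the replicate block and −0.312 to −0.13 with one library left out. From HS38 it was −0.002 with the DESeq2 Wald test, −0.021 with the replicate block and −0.03 to 0.078 with one library left out. The insertion region from HS38 was 0.02 with TMM. With one library left out it was −0.156 to 0.088 from HS38, −0.057 to 0.143 from R2 and 0.039 to 0.276 from R1, and the landing fragment from R1 (chr11:32170702-32172142) was −0.352 to 0.026, with 0.026 without WT αYFP replicate 2 and 0.011 without αPonly replicate 4. The balance from HS38 differed by −0.105 to 0.0665, the step from R1 by −0.0821 to 0.0165, and R2 over HS38 in the insertion region by −0.104 to 0.219. Shares, in percentage points, differed by −0.798 to 0.45 beyond the TAD (0.0296 with a zone wider by 5000 bp) and −0.597 to 1.46 in cis from HS38. From R1 they differed by −2.31 to 0.618 in the sub-TAD, −0.783 to 1.78 beyond the TAD and −0.683 to 1.3 in cis, and from R2 by −1.03 to 1.77 in the sub-TAD (−0.475 with the wider zone) and −1.96 to 0.896 beyond the TAD. Within 100 kb they differed by −0.606 to 1.45 from Hbb-b1, −1.13 to 0.981 from Hbb-b2 and −1.08 to 0.554 from Slc25A37, and in cis by −1.38 to 0.322 from Hbb-b1 and −0.903 to 0.594 from Slc25A37. The causes were not tested. Whether same-numbered libraries were prepared together is not stated, so the replicate block pairs libraries by number alone.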
